A study of Homo sapiens with 112 samples.

Results

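The MYC, MAX and MXD network comprises 10 genes that were taken from the RNA-seq count table by symbol, and all 10 had a row among its 58684 rows. They are the activators MYC, MYCN and MYCL, their common partner MAX, and the 6 MAX-binding repressors MXD1, MXI1, MXD3, MXD4, MNT and MGA. Expression was measured by poly(A) RNA-seq in 2 human prostate cancer cell lines, VCaP, which carries the TMPRSS2-ERG fusion, and LAPC4, which does not. Cells were kept in charcoal-stripped, hormone-poor medium for 2 days and then received the vehicle DMSO, 1 nM of the synthetic androgen R1881, or 1 nM R1881 together with the antiandrogen darolutamide at 500 nM (0.5 µM) or 2 µM, each for 8 h or 22 h. The R1881 and DMSO groups held 7 to 10 libraries, the darolutamide groups 4 or 5, and all 112 libraries came from these 16 groups. The study's methods give 5 biological replicates per condition. How the libraries beyond that number arose is not given in the sources used here. Each line is a single established line in culture, so the replicates are cultures or libraries of the same cells. P-values measure the spread between such samples.

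MYC-family proteins bind DNA only as dimers with MAX, preferentially at the E-box, and recruit coactivators that raise transcription of genes for ribosome production, nucleotide synthesis and growth. MXD proteins, MNT and MGA compete for MAX and for the same sites and recruit corepressors instead. MYC is a well-studied oncogene of the prostate, where androgen signalling and MYC are linked in several directions. RNA levels say nothing on the amounts of the proteins or of the dimers.

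Because the E-box connects the members with their target genes, the 250 bases before each RefSeq transcription start (GRCh38.p14) were searched for the letters CACGTG, which read the same on both strands. The sequence was found in 6.34% of all 35116 windows. Windows were at hand for 9 members, MYC excepted, and 2 of these 9 genes, MNT and MXD4, held it. Of the textbook MYC-induced genes, 29 had a window and 11 of them held the sequence. Some genes have several windows, so the share over all windows compares with counts of windows. By window, the sequence was in 2 of 14 for members (14.3%) and 11 of 40 for MYC-induced genes (27.5%). The following stretches are shown 5′ to 3′ in the direction of transcription, with the E-box in capitals. The first 2 are members, and the others are targets whose RNA is described below.
MNT (chr17:2401233-2401268, minus strand): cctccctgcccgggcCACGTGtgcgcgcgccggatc
MXD4 (chr4:2262327-2262359, minus strand): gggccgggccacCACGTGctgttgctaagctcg
ODC1 (chr2:10448021-10448056, minus strand): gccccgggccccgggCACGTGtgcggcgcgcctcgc
CDK4 (chr12:57752391-57752426, minus strand): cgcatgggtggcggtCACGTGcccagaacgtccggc
APEX1 (chr14:20455167-20455202, plus strand): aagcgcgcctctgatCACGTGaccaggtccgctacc
HSPD1 (chr2:197500342-197500377, minus strand): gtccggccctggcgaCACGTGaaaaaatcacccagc
The HSPD1 stretch also lies before the start of HSPE1, which is transcribed in the opposite direction, so both genes share this E-box. A half-site of the androgen response element, AGAACA or TGTTCT, occurred in 12.4% of all windows and in 1 of 14 member windows (7.14%). That window belongs to MXI1, which is shown because its RNA differed most among members with R1881 in VCaP at 22 h. MXI1 has 3 annotated starts, and the counts do not say which was used. The window before its first start is given with the half-site in capitals.
MXI1 (chr10:110207355-110207604, plus strand): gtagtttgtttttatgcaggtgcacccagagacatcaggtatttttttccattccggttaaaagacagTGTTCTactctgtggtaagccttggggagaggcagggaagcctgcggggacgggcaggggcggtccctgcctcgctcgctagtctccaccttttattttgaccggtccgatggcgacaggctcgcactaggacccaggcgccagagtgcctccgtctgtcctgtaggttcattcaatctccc
A match describes letters in this window and is not evidence of binding. Windows without a match say nothing about sites elsewhere.

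Sequencing gave 12188455 to 25201678 counted reads per library, and levels are given as CPM (counts scaled to a common library total), scaled by TMM factors. Of the 10 members, 9 passed the filter of at least 10 reads in at least 4 libraries in each line. MYCN did not, with 0 to 4 reads per VCaP library and 0 to 2 per LAPC4 library, and was not tested. Of 6 androgen response genes, 6 rose with R1881 in VCaP at both times, and in LAPC4 5 rose and 1 fell. FKBP5, a chaperone gene induced by androgens, rose at 22 h by 5.49 on the log2 scale in VCaP and by 1.36 in LAPC4, whereas STEAP4, a metalloreductase gene, rose by 7.04 in VCaP and was lower in LAPC4 (-0.51). ERG had 1578 to 21554 reads in VCaP and 0 or 1 in LAPC4. The prostate and epithelial markers HOXB13, KRT8, KRT18, EPCAM and CDH1 were detected in both lines. Markers of other cell types moved with the androgen in VCaP. The summed CPM of 10 such markers was 119 to 130 in DMSO and 3.37 to 5.55 in R1881 at 22 h, of which ALB alone reached 125 CPM, whereas the leukocyte and endothelial markers CD3E, MS4A1, PTPRC and CDH5 were at or near 0. In VCaP with R1881 and 2 µM darolutamide the sum was 22.8 to 26.1 at 22 h. In LAPC4 it was 0.416 to 1.94 over all groups. The part of these markers in the results below was not tested. In such bulk libraries, fewer cells expressing a gene and less RNA per cell cannot be told apart.

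In VCaP, R1881 lowered MYC and MXI1, the strongest changes in the network, and raised MYCL. At 22 h, 1 member was higher and 5 were lower than in DMSO. At that time 77.4% of the 19266 genes tested were called, 37.4% higher and 40% lower, so the share of members called was not above the background. The absolute log2 fold change of MYC was larger than that of 96% of all genes tested, and that of MXI1 larger than 97.8%. At 8 h, 2 members were higher and 4 lower, beside 66.9% of all genes (32.8% higher, 34.1% lower). The CPM ranges of DMSO and R1881 did not overlap for 5 members at 8 h (32% of all genes) and for 4 at 22 h (46.8%). The ranges of 2 µM darolutamide and R1881 did not overlap for 4 members at 8 h (27.1%) and 3 at 22 h (43.5%). The size of the response to R1881 differed between the times for 5 members, beside 60.4% of all genes. All tests are the quasi-likelihood test of edgeR with p-values adjusted by Benjamini-Hochberg over all genes of a line (QL test), called at an adjusted p below 0.05. The error given with a log2 fold change is its standard error (SE).

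**Figure D1:**
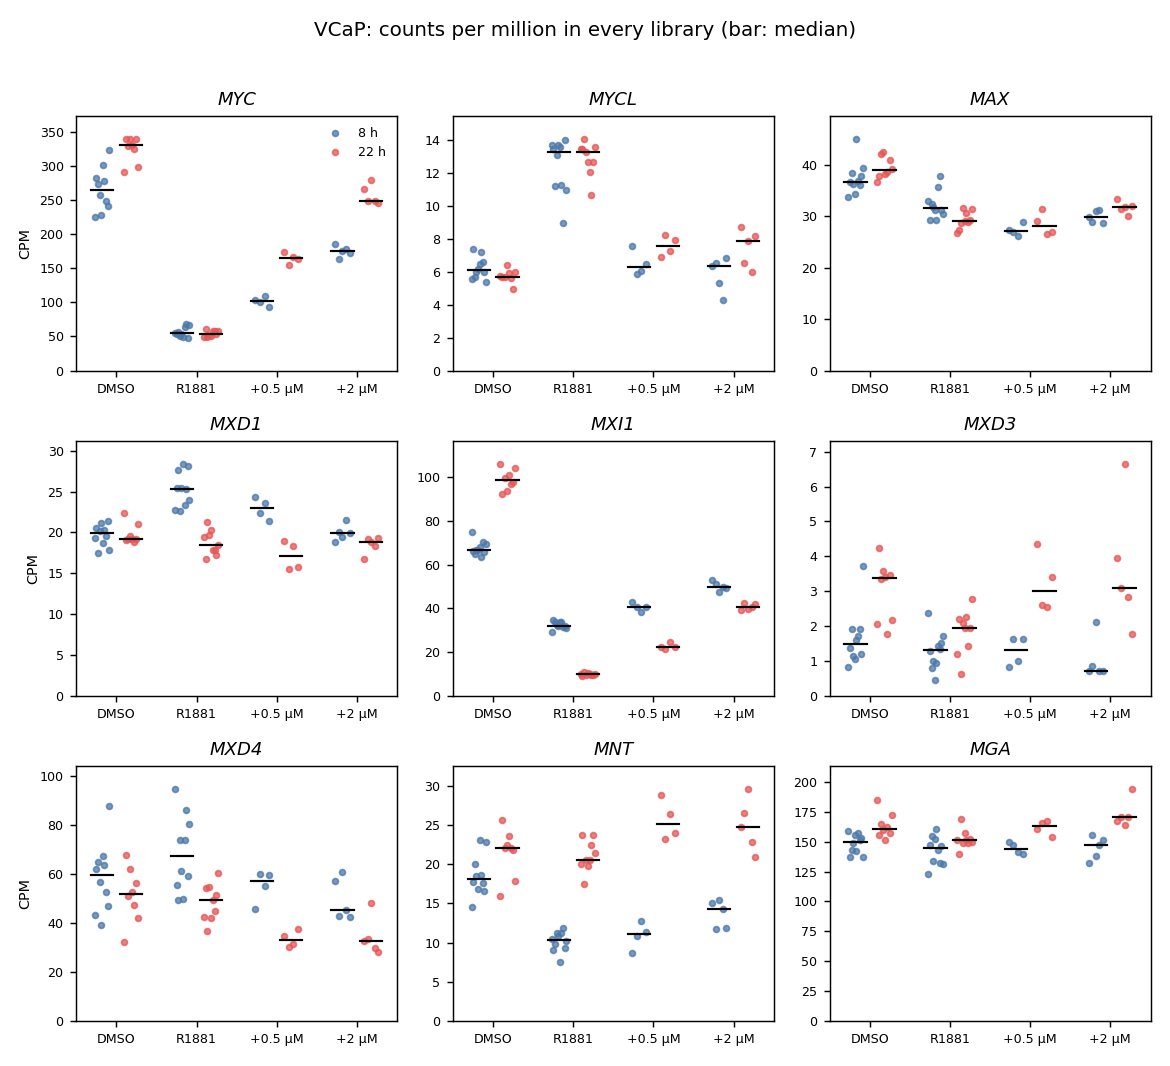
CPM (vertical axis, starting at 0 and scaled per gene) of the 9 tested members in every VCaP library of the 4 treatments (horizontal axis, the last 2 being R1881 plus darolutamide), at 8 h (blue) and 22 h (red), with the median of each group as a bar. MYC and MXI1 are high in DMSO, low in R1881 and stepwise higher with the darolutamide dose. MYCL is low in DMSO, high in R1881 and lower again with either dose, without a step between the doses. MGA stays between 123 and 194 CPM.

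MYC, the main activator of the network, had 291 CPM at the lowest, 330 at the median and 340 at the highest in the 8 DMSO libraries at 22 h, against 49, 52.9 and 60.9 CPM in the 9 R1881 libraries. At 8 h the DMSO libraries had 225, 265 and 323 CPM and the R1881 libraries 47.6, 54.4 and 68.3 CPM. DMSO and R1881 did not overlap at either time. The log2 fold change was -2.58 ± 0.0636 at 22 h (5.97-fold lower, QL test, adjusted p = 5.49e-40) and -2.23 ± 0.0586 at 8 h (4.71-fold lower, QL test, adjusted p = 1.18e-38). The response was 0.34 log2 units larger at 22 h than at 8 h (interaction -0.34 ± 0.0838, QL test, adjusted p = 0.000381). MYC in DMSO was also higher at 22 h than at 8 h (log2 difference 0.28 ± 0.0579, QL test, adjusted p = 8.68e-05), and the R1881 ranges of both times overlapped. With DMSO and R1881 replicates of number 6 and above alone, neither of these differences between times was called (interaction -0.24, adjusted p = 0.116, and DMSO difference 0.18, adjusted p = 0.16). That subset is small, since DMSO at 22 h held 8 libraries in all.

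Darolutamide raised MYC again in a dose-dependent manner. With 500 nM for 8 h the 4 libraries had 103, 101, 109 and 92.6 CPM, and with 2 µM the 5 libraries had 185, 163, 176, 179 and 172 CPM. With 500 nM for 22 h the libraries had 174, 155, 166 and 163 CPM, and with 2 µM they had 266, 249, 280, 248 and 246 CPM. Each dose lay above R1881 alone and the doses did not overlap at either time. Against R1881, MYC rose with 2 µM by 1.63 ± 0.0668 at 8 h (QL test, adjusted p = 8.9e-29) and by 2.25 ± 0.0685 at 22 h (4.75-fold, QL test, adjusted p = 4.81e-35). The higher dose gave more than the lower one by 0.79 ± 0.0851 at 8 h (QL test, adjusted p = 8.28e-11) and by 0.65 ± 0.0836 at 22 h (QL test, adjusted p = 1.24e-08). Expressed as the share of the log2 distance from R1881 back to DMSO, 2 µM returned 73.4% ± 3.13 (SD, n = 5) at 8 h and 87.2% ± 3.12 (SD, n = 5) at 22 h. The lower dose returned 38.2% ± 4.35 (SD, n = 4) and 62.1% ± 2.65 (SD, n = 4). MYC under 2 µM stayed below DMSO at both times, by 0.60 ± 0.0691 at 8 h (QL test, adjusted p = 1.77e-10) and by 0.33 ± 0.0704 at 22 h (QL test, adjusted p = 6.42e-05).

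Ordered by median, MYC in VCaP ran from DMSO at 22 h over DMSO at 8 h, 2 µM at 22 h, 2 µM at 8 h, 500 nM at 22 h and 500 nM at 8 h down to R1881 at 8 h and at 22 h. In this order, DMSO at 8 h overlapped with both of its neighbours, 2 µM at 8 h with 500 nM at 22 h, and the R1881 groups with each other.

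MYCL, the activator named after its discovery in lung cancer, was low but changed in the opposite direction. It had 4.98, 5.7 and 6.42 CPM (lowest, median, highest) in DMSO at 22 h and 10.7, 13.3 and 14.1 CPM in R1881, and the groups did not overlap. MYCL rose by 1.17 ± 0.0842 at 22 h (QL test, adjusted p = 1.24e-18) and by 0.99 ± 0.0758 at 8 h (QL test, adjusted p = 2.03e-17), without a called difference between the times (0.18 ± 0.113, QL test, adjusted p = 0.168). With 2 µM darolutamide it had 6.38, 6.54, 5.35, 4.31 and 6.85 CPM at 8 h and 8.73, 6.56, 7.87, 5.97 and 8.2 CPM at 22 h. With 500 nM it had 7.58, 5.88, 6.04 and 6.5 CPM at 8 h and 6.93, 8.22, 7.28 and 7.92 CPM at 22 h. All of these were below every R1881 library of the same time. The gene overlaps MYCL-AS1 on the opposite strand, and its counts are uncertain to that extent. Every other member overlaps an annotated gene by position too. MYC overlaps CASC11 on the opposite strand. MXI1 overlaps a pseudogene on the same strand and a long non-coding RNA on the opposite strand. The effect of these overlaps on the counts was not tested. No difference between the doses was called, with a 95% interval of the log2 difference of -0.38 to 0.10 at 8 h and of -0.25 to 0.20 at 22 h. At 22 h MYCL under 2 µM remained above DMSO by 0.38 ± 0.0989 (QL test, adjusted p = 0.000912).

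CPM were also divided by the length in kb of all annotated exons of a gene, taken over all its transcripts. The transcripts in these cells can be shorter, to a degree that differs between genes, so shares between genes depend on the length chosen. On this scale MYC made up 97.8% ± 0.238 (SD, n = 8) of the summed CPM per kb of MYC, MYCN and MYCL in VCaP in DMSO at 22 h. In R1881 it made up 77.2% ± 2.45 (SD, n = 9). The share was 96.5% ± 0.469 (SD, n = 5) with 2 µM darolutamide. On this scale MYC was the most abundant of the 3 activator RNAs also in R1881 at 22 h, with 8.88 ± 0.74 CPM per kb (SD, n = 9) in R1881 at 22 h against 2.6 ± 0.206 (SD, n = 9) for MYCL.

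MAX, the obligate partner, changed by less than MYC. It had 36.6, 39 and 42.6 CPM in DMSO at 22 h and 26.8, 29.1 and 31.6 CPM in R1881, which did not overlap. The log2 fold change was -0.43 ± 0.0468 at 22 h (QL test, adjusted p = 3.81e-12) and -0.22 ± 0.0428 at 8 h (QL test, adjusted p = 1.2e-05), and it was larger at 22 h (interaction -0.21 ± 0.0634, QL test, adjusted p = 0.00294), a call that was lost with controls of number 6 and above (-0.13, adjusted p = 0.276). MAX was not called different between 2 µM darolutamide and R1881 at either time (8 h -0.11 ± 0.0529, 22 h 0.12 ± 0.0536, QL test, adjusted p = 0.0821 and 0.0504). The 22 h difference was called with DESeq2 (0.12, adjusted p = 0.0435) and with controls 1 to 5 (0.14, QL test, adjusted p = 0.0172). With the slope of each library's counts on the GC content of genes as a covariate, both times were called (8 h -0.10, 22 h 0.12, QL test, adjusted p = 0.049 and 0.0126). At 500 nM and 8 h MAX was lower than in R1881 alone (-0.24 ± 0.0582, QL test, adjusted p = 0.000951). In 2 µM darolutamide with R1881 it was below DMSO at both times, with values of 29.8, 28.9, 31, 31.2 and 28.7 CPM at 8 h and of 33.4, 31.5, 31.8, 30.1 and 32.1 CPM at 22 h, all under the lowest DMSO library of the same time. MAX lies opposite FNTB on chromosome 14 (chr14:65006174-65102695, GRCh38), and how the authors' counting treated strand is not given in the sources used here.

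Among the repressors, MXI1 (chr10:110207605-110287365, GRCh38) had the strongest change. It had 92.4, 98.7 and 106 CPM in DMSO at 22 h and 9.12, 9.89 and 10.7 CPM in R1881. At 8 h it had 63.6, 66.7 and 74.9 CPM in DMSO and 29.2, 32.1 and 34.4 CPM in R1881. The groups did not overlap at either time, and all R1881 libraries at 22 h were below all R1881 libraries at 8 h. MXI1 fell by 1.06 on the log2 scale at 8 h (SE 0.0319, QL test, adjusted p = 7.6e-36) and fell by 3.32 at 22 h (SE 0.0384, 10-fold lower, QL test, adjusted p = 8.74e-56). The difference between the times was -2.26 ± 0.0494 (QL test, adjusted p = 2.71e-41), the largest of the network.

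With darolutamide MXI1 lay between R1881 and DMSO at both doses. With 500 nM it had 42.9, 40.6, 38.1 and 40.4 CPM at 8 h and 22.4, 21.4, 24.6 and 22.1 CPM at 22 h. With 2 µM it had 53, 51.3, 47.3, 49.7 and 49.2 CPM at 8 h and 39.1, 42.2, 39.5, 40.7 and 42 CPM at 22 h. The ranges of the 4 treatments did not overlap at either time. The return on the log2 scale was 59.4% ± 5.8 (SD, n = 5) at 8 h and 61.4% ± 1.5 (SD, n = 5) at 22 h with 2 µM, and 30.5% ± 6.59 (SD, n = 4) and 35.8% ± 2.63 (SD, n = 4) with 500 nM. Under 2 µM at 22 h MXI1 was still below DMSO by 1.28 ± 0.0411 (QL test, adjusted p = 2.51e-33). Of the summed CPM per kb of the 6 repressors, MXI1 held 43.4% ± 2.83 (SD, n = 8) in DMSO at 22 h, 7.6% ± 0.598 (SD, n = 9) in R1881 and 25.5% ± 1.71 (SD, n = 5) with 2 µM darolutamide.

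MNT, a widely expressed MYC antagonist, differed from MXI1 in its timing. At 8 h it had 14.5, 18.2 and 23.1 CPM in DMSO and 7.49, 10.3 and 11.9 CPM in R1881, without overlap. At 22 h the ranges overlapped, with 16, 22.1 and 25.7 CPM in DMSO and 17.5, 20.6 and 23.8 CPM in R1881. The log2 fold change was -0.88 ± 0.0845 at 8 h (QL test, adjusted p = 9.94e-14) and -0.02 ± 0.0875 at 22 h (QL test, adjusted p = 0.856), and the difference between the times was 0.86 ± 0.122 (QL test, adjusted p = 1.71e-08). With the GC slope of each library as a covariate the 22 h difference was called (-0.13, adjusted p = 0.0171). At 8 h MNT rose with 2 µM darolutamide by 0.43 ± 0.103 (QL test, adjusted p = 0.000329), with 15.1, 11.7, 15.5, 14.3 and 11.8 CPM. At 22 h it was higher by 0.23 ± 0.0981 (QL test, adjusted p = 0.0312), a call that was lost without replicate 1, 2 or 3 of the darolutamide groups (adjusted p = 0.0708, 0.123 and 0.165). The 22 h call with 500 nM (0.28 ± 0.106, QL test, adjusted p = 0.0244) was lost without replicate 1 (0.21, adjusted p = 0.114) or 3 (0.25, adjusted p = 0.0571). Both were also lost when only DMSO and R1881 replicates of number 6 and above were used.

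MXD1 (MAD1), the repressor that accompanies differentiation in many cell types, was higher with R1881 at 8 h. Its gene overlaps SNRNP27 on the same strand, so its counts are uncertain. It had 17.5, 19.9 and 21.4 CPM in DMSO and 22.6, 25.4 and 28.4 CPM in R1881 at 8 h, without overlap (0.36 ± 0.0473, QL test, adjusted p = 1.25e-09). At 22 h the ranges overlapped, with 18.8 to 22.4 CPM in DMSO and 16.8 to 21.3 CPM in R1881 (-0.08 ± 0.0525, QL test, adjusted p = 0.184), and the times differed (-0.44 ± 0.0706, QL test, adjusted p = 3.38e-07). At 8 h 2 µM darolutamide lowered it by 0.34 ± 0.0584 (QL test, adjusted p = 1.55e-06) to 18.8, 20.1, 19.5, 21.5 and 19.9 CPM, all below the R1881 libraries. The lower dose left 24.4, 22.4, 23.6 and 21.4 CPM, and the difference between the doses (-0.20) was called but was lost without replicate 1, 2, 3 or 5 (adjusted p = 0.352, 0.108, 0.187 and 0.091).

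MXD3, linked to cell cycle progression, ran from 0.462 to 6.65 CPM over all VCaP libraries, and its gene overlaps PRELID1 and RAB24, so its counts are uncertain. It was lower in R1881 at 22 h (-0.69 ± 0.256, QL test, adjusted p = 0.0133) and higher with 2 µM darolutamide (0.98 ± 0.276, QL test, adjusted p = 0.00152), with overlapping ranges. With only the controls of number 6 and above, the R1881 difference was -0.22 (adjusted p = 0.627). At 500 nM and 22 h MXD3 was higher by 0.80 ± 0.304 (QL test, adjusted p = 0.0229), which was not called without replicate 1 (0.62, adjusted p = 0.136) or replicate 4 (0.77, adjusted p = 0.0547).

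MXD4, a repressor described in quiescent and differentiating cells, was not called for R1881 at either time and had a wide spread, from 39.4 to 87.7 CPM in DMSO and from 49.4 to 94.8 CPM in R1881 at 8 h. It was lower with 2 µM darolutamide than with R1881 alone at 8 h (-0.46 ± 0.152, QL test, adjusted p = 0.00936) and at 22 h (-0.49 ± 0.159, QL test, adjusted p = 0.00529), where the libraries had 32.8, 33.5, 48.2, 30 and 28.2 CPM. It was also below DMSO at 22 h (-0.57 ± 0.162, QL test, adjusted p = 0.00202). With the slope of each library's counts on the GC content of genes as a covariate, the SE of MXD4 at 22 h fell from 0.135 to 0.0342 for R1881 against DMSO, and R1881 was then called lower at 22 h (-0.27, adjusted p = 1.01e-10) and higher at 8 h (0.33, adjusted p = 4.03e-16).

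MGA, a very large protein that binds MAX within a Polycomb-type repressor complex, differed less between groups. It had 151 to 185 CPM in DMSO and 140 to 169 CPM in R1881 at 22 h, which overlapped (-0.11 ± 0.0433, QL test, adjusted p = 0.0222). With 2 µM it had 167, 171, 164, 171 and 194 CPM (0.19 ± 0.0493 above R1881, QL test, adjusted p = 0.000582). The R1881 difference was not called with either subset of the DMSO and R1881 libraries (-0.115 and -0.135, QL test, adjusted p = 0.0783 and 0.0561).

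Against R1881, 2 µM darolutamide left 3 members higher (MYC, MXI1, MNT) and 3 lower (MYCL, MXD1, MXD4) at 8 h. Of all genes, 52.1% were called at 8 h (25.9% higher). At 22 h 5 members were higher (MYC, MXI1, MXD3, MNT, MGA) and 2 lower (MYCL, MXD4), beside 66.9% (36.1% higher). With 500 nM the counts were 2 higher and 2 lower at 8 h (30.6% of all genes called) and 4 higher and 2 lower at 22 h (53%). Between the doses, 2 members were higher and 1 lower at 8 h (17.6%), and 2 were higher at 22 h (20.2%, 10.4% higher). Compared with DMSO, 2 µM with R1881 left 4 members lower at 8 h (27.5%, 12% lower), and 4 lower and 1 higher at 22 h (59%). All comparisons with R1881 use the same R1881 libraries. In DMSO, 4 members (MYC, MXI1, MXD3, MGA) were higher at 22 h than at 8 h (29.8% of all genes called, 15.9% higher), of which MXI1 alone did not overlap between the times (0.55 ± 0.0323, QL test, adjusted p = 6.71e-21). With controls of number 6 and above, MXI1 was the member still called, while MYC (given above), MXD3 (0.24, adjusted p = 0.688) and MGA (0.13, adjusted p = 0.128) were not, and MGA was not called with controls 1 to 5 either (adjusted p = 0.168).

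**Figure D2:**
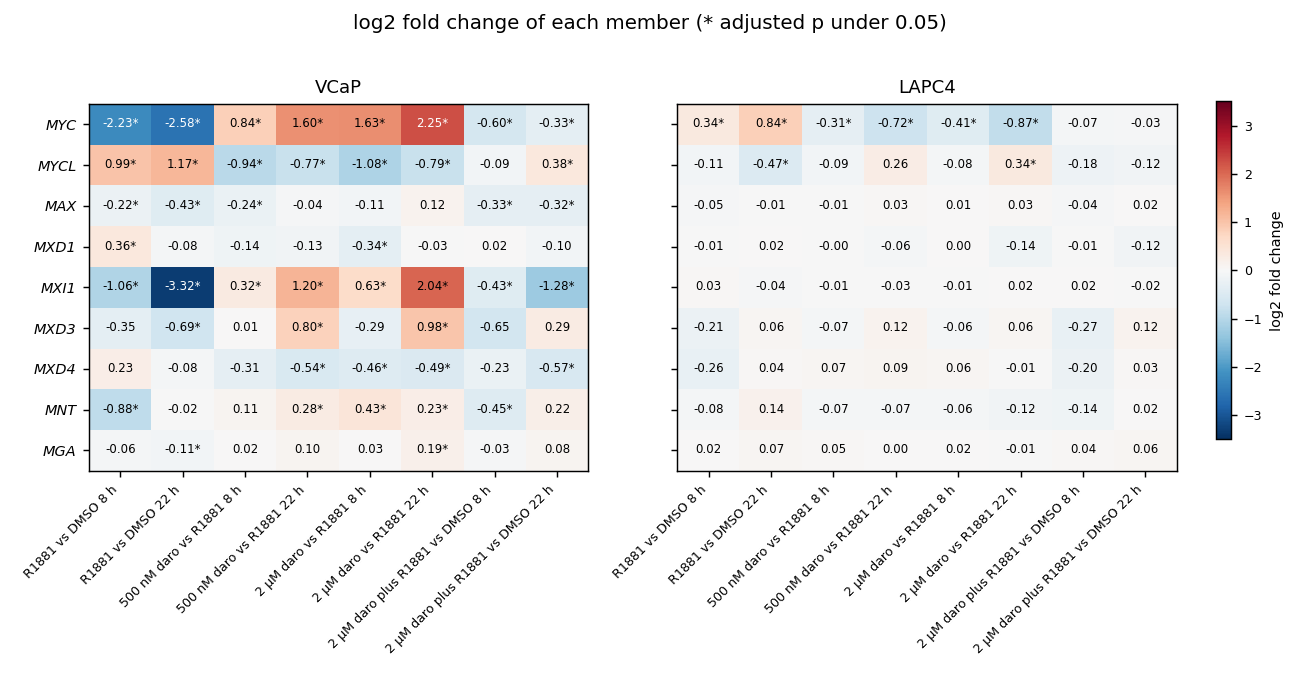
Fitted log2 fold change of each of the 9 tested members (rows) in 8 comparisons (columns) in VCaP (left) and LAPC4 (right), in the colours of the scale, with an asterisk where the adjusted p was below 0.05. VCaP values run from -3.32 for MXI1 to 2.25 for MYC at 22 h, while in LAPC4 the asterisks stand in the rows of MYC and MYCL.

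In LAPC4, MYC moved in the direction opposite to VCaP, and apart from MYCL no other member was called in a comparison of treatments. In DMSO at 22 h the 7 libraries had 11.2, 11.9 and 13.5 CPM of MYC (lowest, median, highest), and the 10 R1881 libraries had 18.5, 21.5 and 24.5 CPM, without overlap. At 8 h the DMSO libraries had 10.2, 11.4 and 13.6 CPM and the R1881 libraries 13.2, 14.9 and 16.3 CPM, which overlapped slightly. MYC rose by 0.84 ± 0.0705 at 22 h (1.79-fold, QL test, adjusted p = 1.97e-14) and by 0.34 ± 0.0641 at 8 h (1.27-fold, QL test, adjusted p = 0.000209). The rise was larger at 22 h (interaction 0.50 ± 0.0948, QL test, adjusted p = 0.000325). This was not called with controls 1 to 5 (0.41, QL test, adjusted p = 0.127) or number 6 and above (0.53, QL test, adjusted p = 0.128). The latter subset is small, since DMSO at 22 h held 7 libraries in all. The 8 h rise was not called with replicates of number 6 and above alone (0.31, QL test, adjusted p = 0.146). At 22 h 2 members (1 higher, 1 lower) were called beside 13.3% of the 18204 genes tested (6.83% higher, 6.45% lower), and at 8 h 1 member was called beside 2.64% (1.75% higher). For the difference between the times 1 member, MYC, was called beside 3.21% (1.8% higher). The ranges of 2 members did not overlap at 22 h (3.83% of all genes) and those of 0 at 8 h (0.725%), and between 2 µM darolutamide and R1881 those of 2 at 22 h (3.96%) and of 1 at 8 h (1.1%). The 22 h change of MYC exceeded that of 99% of all genes of this line in absolute size.

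With 2 µM darolutamide the LAPC4 libraries had 11.7, 10.7, 10.7, 10.5 and 12.4 CPM of MYC at 8 h and 11.1, 11.8, 12, 10.4 and 13.2 CPM at 22 h. With 500 nM they had 15.3, 10.8, 11.9, 11.6 and 10.4 CPM at 8 h and 16.7, 11.9, 12.6, 11.5 and 12.2 CPM at 22 h. The 22 h libraries of both doses, and the 8 h libraries of 2 µM, were below every R1881 library of the same time. Against R1881, MYC fell by 0.87 at 22 h (SE 0.0798, QL test, adjusted p = 5.44e-13) and fell by 0.41 at 8 h with 2 µM (SE 0.0793, QL test, adjusted p = 0.000492). With 500 nM it fell by 0.72 at 22 h (SE 0.0791, QL test, adjusted p = 4.75e-10). The 8 h change with 500 nM (-0.31 ± 0.0787, QL test, adjusted p = 0.0368) was not called without replicate 2, 3, 4 or 5 of the darolutamide groups (adjusted p = 0.226, 0.141, 0.126 and 0.216). No difference between the doses was called, with intervals of -0.28 to 0.08 at 8 h and -0.34 to 0.03 at 22 h. In the presence of 2 µM darolutamide MYC did not differ from DMSO by a called amount, with 95% intervals of the log2 difference of -0.23 to 0.09 at 8 h and -0.20 to 0.14 at 22 h. Members called were 1 of 9 for 2 µM against R1881 at 8 h (1.54% of all genes, 1.08% lower) and 2 of 9 at 22 h (10.5%), 1 of 9 for 500 nM at each time (0.626% and 5.89%, of which 0.489% and 3.21% lower), and 0 of 9 between doses (0.0275% at 8 h and 0.258% at 22 h) or for 2 µM against DMSO (0.011% and 0.0165%).

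MYCL in LAPC4 had 5.96, 7.7 and 8.58 CPM in DMSO and 4.44, 5.4 and 5.83 CPM in R1881 at 22 h, without overlap (-0.47 ± 0.0807, QL test, adjusted p = 1.1e-05). With controls of number 6 and above the difference was -0.48 (QL test, adjusted p = 0.0604). At 8 h the ranges were 4.01 to 5.44 and 3.37 to 5.27 CPM (-0.11 ± 0.0787, QL test, adjusted p = 0.728). With 2 µM at 22 h it had 5.95, 6.99, 8.03, 6.97 and 5.9 CPM, above all R1881 libraries (0.34 ± 0.0902, QL test, adjusted p = 0.00563), though the call was lost without replicate 3 (0.28, adjusted p = 0.0639). In DMSO MYCL was higher at 22 h than at 8 h (0.69 ± 0.0813, QL test, adjusted p = 9.5e-10), as was MXI1 (0.23 ± 0.031, QL test, adjusted p = 6.14e-08), the 2 members called there beside 22.1% of all genes (10.7% higher). On the scale of CPM per kb, MYC held 57% ± 3.53 (SD, n = 7) of the activators in DMSO at 22 h and 76.4% ± 2.42 (SD, n = 10) in R1881. The share was 58.4% ± 4.17 (SD, n = 5) with 2 µM darolutamide.

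The other 7 tested members of LAPC4 overlapped between DMSO and R1881 at both times, with log2 fold changes between -0.26 and 0.14. MXI1 was the member with the strongest response to R1881 in VCaP at 22 h. In LAPC4 at 22 h MXI1 had 91.6, 98.7 and 107 CPM in DMSO and 90.5, 97.5 and 103 CPM in R1881. Its log2 fold change was -0.04 ± 0.0311 (QL test, adjusted p = 0.541), with a 95% interval of -0.10 to 0.03. MXD4 ranged from 69.8 to 183 CPM among the 5 libraries of 2 µM at 22 h alone, so small changes of it were not detectable. With the GC slope as a covariate, MXD4 (-0.12, adjusted p = 0.00187) and MGA (0.11, adjusted p = 0.000574) were called at 22 h as well.

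**Figure D3:**
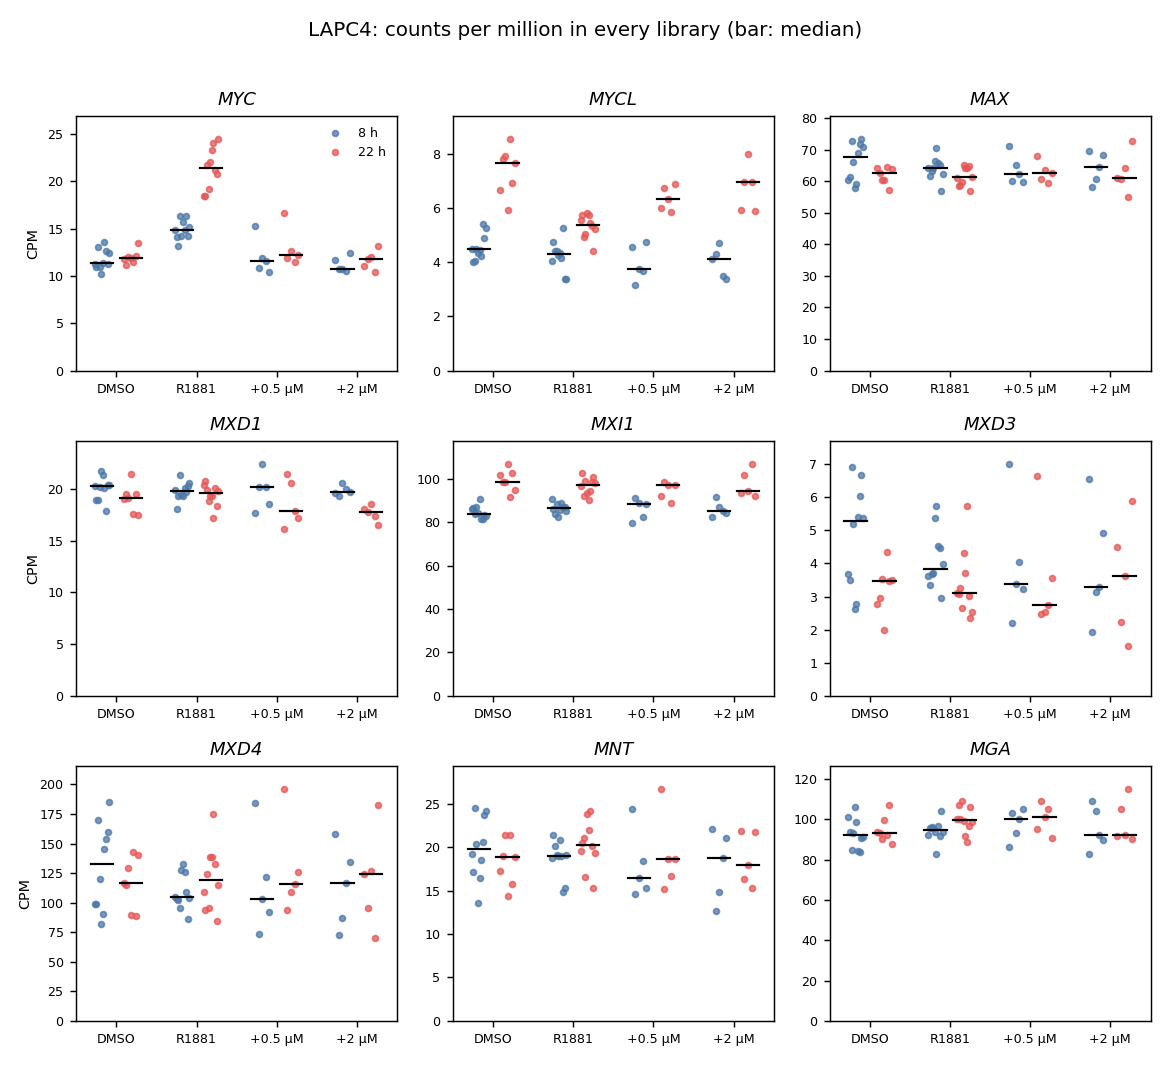
CPM (vertical axis, starting at 0 and scaled per gene) of the 9 tested members in every LAPC4 library of the 4 treatments, at 8 h (blue) and 22 h (red), with the median of each group as a bar. MYC reaches 18.5 to 24.5 CPM in R1881 at 22 h and 10.2 to 16.7 CPM in all groups without R1881 or with darolutamide, and MXI1 stays between 79.7 and 107 CPM in all 8 groups.

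A joint fit of both lines over the 16578 genes tested in each compared the responses directly. The R1881 effect at 22 h was lower in VCaP than in LAPC4 for MYC (-3.47 ± 0.0899, QL test, adjusted p = 2.71e-60), MXI1 (-3.35 ± 0.0563, QL test, adjusted p = 1.31e-77), MAX, MXD3 and MGA, and higher for MYCL (1.58 ± 0.117, QL test, adjusted p = 1.82e-23). These 6 of 9 members stood beside 68.5% of all genes called, and 7 of 9 beside 58.5% at 8 h. The effect of 2 µM darolutamide at 22 h differed in the reverse direction for MYC (3.12 ± 0.101, QL test, adjusted p = 6.73e-51), MXI1 (2.02 ± 0.0628, QL test, adjusted p = 1.64e-52) and MYCL (-1.14 ± 0.13, QL test, adjusted p = 4.3e-13), and 6 of 9 members were called beside 58.9% of all genes (5 of 9 at 8 h, beside 39.9%).

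The lines also differed in vehicle. Here the scaling matters, since the CPM printed above were scaled within each line and the joint fit scaled both lines together, which placed VCaP higher by 0.29 to 0.31 log2 units for the 9 members at 22 h in DMSO. MYC was 33.3-fold higher in VCaP in the joint fit (log2 difference 5.06 ± 0.0739, QL test, adjusted p = 7.38e-85) and 26.8-fold higher from the levels scaled within each line (4.74), and even the lowest VCaP library in R1881, at 47.6 CPM, was above the highest LAPC4 library, at 24.5 CPM. MGA was 2.13-fold higher in VCaP in the joint fit (QL test, adjusted p = 8.16e-34) and 1.72-fold higher within lines. MXD4 (-0.89 ± 0.164, QL test, adjusted p = 5.33e-07) and MAX (-0.35 ± 0.0442, QL test, adjusted p = 8.17e-12) were lower, and were lower with the scaling within lines too (-1.20 and -0.65). MXI1 was 0.30 in the joint fit and -0.005 within lines, so no direction is given for it, nor for MXD1, MNT, MYCL and MXD3, whose differences were also no larger than 0.53 in the joint fit. The joint fit called 7 of 9 members, beside 85.5% of all genes, and 8 of 9 at 8 h, beside 87.9%. Cell line and any batch in which the lines were processed cannot be told apart here.

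Genes that textbooks list as induced by MYC were examined as a list of 36 genes, compiled from general knowledge with earlier results of these data known, of which 34 were tested in VCaP. At 22 h with R1881, 8 were higher and 21 lower, with a median log2 fold change of -0.33 beside -0.03 over all genes. Of all genes, 37.4% were higher and 40% lower. IMPDH2, an enzyme of guanine nucleotide synthesis (-1.32 ± 0.0298, QL test, adjusted p = 6.2e-42), and FBL, the methyltransferase of ribosomal RNA (-0.998 ± 0.0319, QL test, adjusted p = 1.48e-34), fell. ODC1, the first enzyme of polyamine synthesis, whose E-box is given above, rose by 3.17 ± 0.0357 (QL test, adjusted p = 2.57e-56). At 8 h 2 genes of the list were higher and 27 lower, with a median of -0.40 (32.8% of all genes higher, 34.1% lower). With 2 µM darolutamide 30 of the 34 were higher and 2 lower than in R1881 at 22 h (median 0.70 beside 0.06), and 23 higher and 2 lower at 8 h. The 2 that were lower were ODC1 and EIF4E at both times. The darolutamide counts stand beside 36.1% of all genes higher at 22 h and 25.9% at 8 h.

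In LAPC4, 33 genes of the list were tested. At 22 h with R1881, 15 were higher and 1 lower (median 0.17 beside 0.01 over all genes, of which 6.83% were higher). With 2 µM darolutamide 1 was higher and 11 lower (median -0.12, 5.47% of all genes lower). The nucleolar factors NOP56 (0.26), DKC1 (0.24) and NOLC1 (0.22) had the smallest p-values in LAPC4, and the same 3 genes fell in VCaP, by 0.35, by 0.42 and by 0.41. At 8 h 1 gene, NOP56, was called. Whether the list differs between the lines was not tested as such.

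The list was then split by the E-box. Of the 11 tested list genes with an E-box in a window, 5 were higher (EIF4E, HSPE1, LDHA, ODC1, SRM) and 5 lower (APEX1, CDK4, HSPD1, PRDX3, RCC1) with R1881 at 22 h in VCaP. HSPD1 and HSPE1, which encode mitochondrial chaperones and share their E-box, were chosen after their values were seen and stood on opposite sides (-0.13 ± 0.036 and 0.20 ± 0.0476, QL test, adjusted p = 0.00147 and 0.000183). Among the 17 with a window but no E-box, 2 were higher and 14 lower, beside 37.4% of all genes higher and 40% lower. The E-box genes did not divide in this way at 8 h or with darolutamide. At 8 h 2 of the 11 were higher and 7 lower, and 0 and 15 of the 17 (32.8% of all genes higher, 34.1% lower), and with 2 µM darolutamide at 22 h 8 of the 11 were higher and 2 lower, and 17 and 0 of the 17 (36.1% higher). The windows cover only 250 bases, and the difference between the gene sets was not tested.

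**Figure D4:**
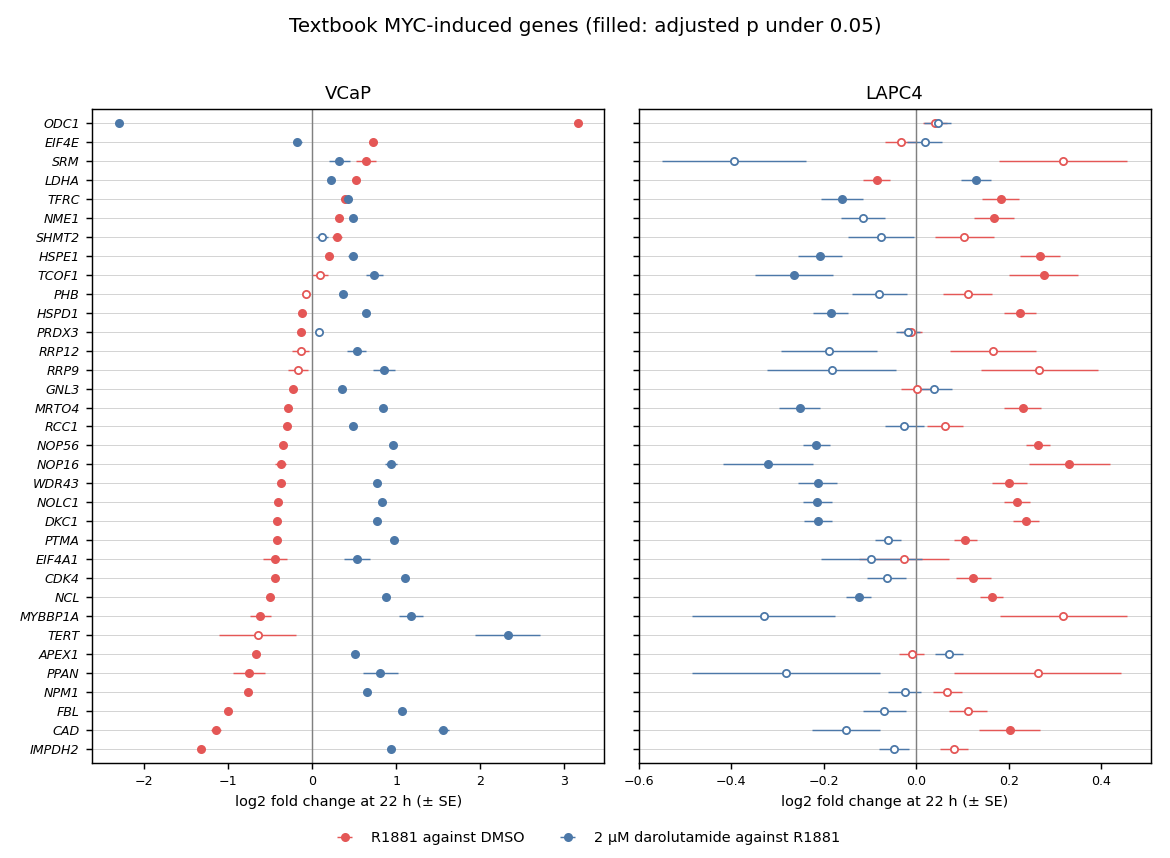
Log2 fold change ± SE (horizontal axis) at 22 h of the textbook MYC-induced genes (rows, ordered by VCaP) for R1881 against DMSO (red) and for 2 µM darolutamide against R1881 (blue), in VCaP (left) and LAPC4 (right, with a narrower scale), filled where the adjusted p was below 0.05. In VCaP most red points lie left and most blue points right of 0 with ODC1 at 3.17 as the far exception, and in LAPC4 most red points lie right of 0.

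Of 9 tested genes that MYC is known to repress, 6 were higher and 3 lower in VCaP at 22 h with R1881, where 77.4% of all genes were called, 37.4% higher and 40% lower. NDRG1, a stress and differentiation gene, rose by 2.38 ± 0.0341 (QL test, adjusted p = 1.72e-51), and CDKN1A, which encodes the cell cycle inhibitor p21, rose by 2.03 ± 0.0579 (QL test, adjusted p = 5.83e-37). GADD45A was lower (-1.15 ± 0.0741, QL test, adjusted p = 1.55e-20). With 2 µM darolutamide 1 was higher and 7 lower, beside 66.9% of all genes called, of which the part higher was 36.1% of all genes. In LAPC4 0 of 10 were higher and 2 lower at 22 h with R1881, beside 13.3% (6.83% higher, 6.45% lower).

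In all, 2 long non-coding RNAs from the MYC region were tested. PCAT1 fell by 3.47 ± 0.0839 (QL test, adjusted p = 1.83e-40) and PVT1 fell by 1.00 ± 0.0464 (QL test, adjusted p = 5.53e-27) in VCaP at 22 h, and both were higher with 2 µM darolutamide. In LAPC4 PVT1 was higher with R1881 (0.43 ± 0.125, QL test, adjusted p = 0.0125) and PCAT1 was not called (0.15 ± 0.149, QL test, adjusted p = 0.633). PVT1 had the sign of MYC in either line.

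The wider network was examined by list at 22 h with R1881. In VCaP, MLX, the MAX-like partner of a parallel network, rose by 1.36 ± 0.0365 (QL test, adjusted p = 2.96e-38), and its partner MLXIPL, a glucose sensor, was lower (-1.06 ± 0.298, QL test, adjusted p = 0.00123). Of 16 corepressors used by MXD proteins and MNT, 11 were higher and 2 lower, among them HDAC1 (0.54), SAP130 (0.47) and SUDS3 (0.46). Of 15 MYC coactivators, 10 were higher and 4 lower, with MYCBP (0.83), TRRAP (0.51) and EP300 (0.41) as the calls with the smallest p. Of 18 genes of MYC protein turnover, 6 were higher, such as the deubiquitinase USP7 (0.46), and 5 lower, such as the ubiquitin ligase component SKP2 (-0.67) and the deubiquitinase USP36 (-0.73). Of 10 partners in the MGA complex, 6 were higher and 4 lower, with YAF2 (0.71), RYBP (0.68) and RNF2 (0.59) as examples. These counts stand beside 77.4% of all genes called, 37.4% higher and 40% lower. In LAPC4 the calls were 0 of 3 for the MLX genes, 2 of 16 corepressors, 3 of 15 coactivators, 0 of 18 turnover genes and 2 of 10 MGA partners, beside 13.3%.

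Over the 8 group means of a line, the genes whose log2 CPM followed MYC most closely in VCaP were ZFP62 (Pearson r 0.9957), DIEXF (0.9946) and MRPS27 (0.9944), and those most opposed were ACAA1 (-0.9961), ACAD8 (-0.9955) and XPR1 (-0.9951), of 9626 genes considered. In LAPC4 they were LINC01443 (0.9982), SLC39A8 (0.9938) and ZNF761 (0.9907), and PDE4DIP (-0.997), ENC1 (-0.9915) and ATP1B1 (-0.9896), of 9096. Within the network r with MYC in VCaP was -0.848 for MYCL, 0.761 for MXI1, 0.583 for MAX, 0.574 for MGA and 0.508 for MNT. It was -0.486 for MXD1, 0.484 for MXD3 and -0.391 for MXD4. In LAPC4 r was 0.0106 for MYCL, 0.279 for MXI1, -0.487 for MAX, 0.403 for MGA and 0.698 for MNT. There it was 0.11 for MXD1, -0.182 for MXD3 and 0.0886 for MXD4. These values describe 8 points that share libraries and were picked as extremes among many genes.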

How the data were processed

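Poly(A) RNA was sequenced as 112 stranded single-end libraries. Per the labels and the study's methods, the authors used bcl2fastq 2.17, STAR, featureCounts of Subread and DESeq2 with GRCh38. Versions other than that of bcl2fastq, and the strand setting of the counting, are not given in the sources used here. The deposited values were whole-number counts per gene, not normalized. Columns were matched to samples by name and grouped by the GEO labels. Members and lists were chosen with earlier results of these data known.

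The filter kept genes that reached 10 reads in 4 or more libraries. Each line was fitted with its 8 groups in edgeR 4.0.16 (R 4.3.3) with TMM scaling and the quasi-likelihood test, and p-values were adjusted by Benjamini-Hochberg over all genes of the fit (threshold 0.05). A joint fit of both lines, scaled together, gave the contrasts between them, and DMSO levels were also compared with the scaling within each line, a comparison added after the data were seen. Log2 CPM used a prior count of 2. Intervals are at 95%. CPM per kb used the joint length of all exons annotated for a gene in GENCODE, not that of the transcript expressed. Libraries held 12188455 to 25201678 reads, whose number limits low genes such as MXD3 and MYCN. The fitting code was tested on simulated data. Named genes were all members, at most 3 genes per list by the smallest adjusted p for R1881 against DMSO at 22 h in each line, and the 3 genes most and least correlated with MYC. Alternatives were DESeq2 1.42.0, other filters, only the compared groups, subsets of the DMSO and R1881 libraries, leaving out each darolutamide replicate, a replicate block and the GC slope. RefSeq windows matched 9 members, and no sequence of chromosome 8 was used.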

Additional observations from a re-analysis of the deposited data

Results flagged for a closer look

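Of 144 sets of libraries (a member in a group of 4 to 10), 5 held a library far from the others by Dixon's criterion, which chance alone reaches in about 5% of sets. They were MAX in VCaP with DMSO at 8 h, replicate 6 (log2 CPM 5.50), MGA in VCaP with 2 µM darolutamide at 22 h, replicate 5 (7.60), MXD3 in VCaP with 2 µM at 8 h, replicate 3 (1.15), MYC in LAPC4 with DMSO at 22 h, replicate 7 (3.76), and MYC in LAPC4 with 500 nM at 22 h, replicate 1 (4.08). Each was the highest of its group.

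The R1881 response differed between 22 h and 8 h, by the interaction in edgeR's quasi-likelihood test, for MYC (-0.34), MAX (-0.21), MXD1 (-0.44), MXI1 (-2.26) and MNT (0.86) in VCaP, and for MYC (0.50) in LAPC4. With controls of number 6 and above, MYC (-0.24) and MAX (-0.13) in VCaP and MYC (0.53) in LAPC4 were not called. Other members were called only with the GC slope of each library as a covariate. In VCaP these were MXD4 (-0.60, QL test, adjusted p = 6.75e-19) and MXD3 (-0.85, QL test, adjusted p = 0.000864). In LAPC4 MYCL (-0.38, QL test, adjusted p = 0.0161) and MGA (0.12, QL test, adjusted p = 0.0252) were called with this covariate.

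The R1881 response differed between the lines (VCaP minus LAPC4) at 8 h for MYC (-2.66), MYCL (1.01), MAX (-0.25), MXD1 (0.29), MXI1 (-1.18), MNT (-0.88) and MGA (-0.17), the last not with controls 1 to 5 (adjusted p = 0.302) or DESeq2 (adjusted p = 0.096). At 22 h it differed for MYC (-3.47), MYCL (1.58), MAX (-0.48), MXI1 (-3.35), MXD3 (-0.81) and MGA (-0.24). The response to 2 µM darolutamide differed at 8 h for MYC (2.10), MYCL (-0.95), MXD1 (-0.29), MXI1 (0.69) and MNT (0.55). At 22 h it differed for MYC (3.12), MYCL (-1.14), MXI1 (2.02), MXD3 (0.93), MNT (0.36) and MGA (0.20), of which MNT was not called with controls 1 to 5 (adjusted p = 0.0507) or with DESeq2 (adjusted p = 0.0515), MXD3 not with controls 1 to 5 (adjusted p = 0.0567) and MGA not with DESeq2 (adjusted p = 0.0614). Responses to R1881 and to darolutamide use the same R1881 libraries.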

How the results depend on the processing

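Of 2808 recomputed member values, 2675 kept their call (higher, lower or not called), 59 were no longer called and 74 became called. Of the called values, 0 reversed, and the sign of uncalled values was not compared. Of the DMSO levels compared between the lines, scaling within each line, chosen after seeing the data, reversed MXI1 at 22 h (-0.005) and MXD1 (-0.026) and MNT (-0.079) at 8 h. Of 108 calls, 84 held under every alternative run. The cause of the changes below was not tested. With the GC slope as a covariate the members called were 5 (2 µM against 500 nM, VCaP 8 h, main value 3), 4 (the same at 22 h, main 2), 2 and 4 (LAPC4 R1881 at 8 h and 22 h, main 1 and 2), 2 (LAPC4 500 nM at 22 h, main 1), 4 (LAPC4 DMSO over time, main 2) and 3 (LAPC4 R1881 interaction, main 1). With controls of number 6 and above they were 1 (VCaP DMSO over time, main 4), 3 (VCaP interaction, main 5), 0 and 1 (LAPC4 R1881 at 8 h and 22 h) and 0 (LAPC4 interaction), and with controls 1 to 5 the last was also 0. With only the compared groups the LAPC4 interaction had 2. For LAPC4 500 nM at 8 h (main 1) the count was 0 with either subset of controls, with no filter, with only the compared groups and with the replicate block, and 0 to 1 when leaving out darolutamide replicates. For LAPC4 2 µM at 22 h leaving out a replicate gave 1 to 2.

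On average, same-numbered libraries did not deviate together (mean correlation -0.00511 over 149 pairs in VCaP and 0.0549 over 161 in LAPC4). Single pairs ran from -0.501 to 0.455 in VCaP and from -0.573 to 0.597 in LAPC4. Whether same-numbered libraries were handled together was not tested. With the replicate block the count was 0 for LAPC4 2 µM at 8 h, 1 for 2 µM at 22 h and 2 for the interaction. It also ended the calls of MAX in VCaP for 500 nM at 8 h (-0.19, adjusted p = 0.148), of MXD1 in VCaP between the doses at 8 h (-0.18, adjusted p = 0.198) and of MYC in LAPC4 for 2 µM at 8 h (-0.39, adjusted p = 0.122). With the replicate block and the GC slope together it was 5 for VCaP 2 µM against 500 nM at 8 h, and in LAPC4 it was 4 for R1881 at 22 h, 2 for 500 nM at 22 h, 1 for 2 µM against DMSO at 22 h (main 0) and 3 for the interaction. Low reads limit MXD3 and leave MYCN untested.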
